A study of Mus musculus with 6 samples.

Results

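The genes described here are the 10 genes Cav1, Cav2, Cavin1, Cavin2, Cavin3, Ehd2, Ehd4, Pacsin2, Plvap and Dnm2, which build caveolae or pinch vesicles off the plasma membrane. They were found by matching the deposited mouse gene identifiers to these symbols, and all 10 were present among 55335 identifiers. All 10 were also among the 12639 genes expressed highly enough to be tested. The libraries are labelled bEnd.3, a transformed endothelial line of mouse brain, with genotype WT in both groups. In 3 control libraries the cells received culture medium alone. In 3 mitochondria libraries they received mitochondria from primary mouse astrocytes in the same volume of medium, and both groups were collected after 24 h. The labels do not state whether libraries came from separate cultures, and p-values then measure only the spread between libraries, which may be technical.

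Caveolae are small flask-shaped pits of the plasma membrane that are abundant in endothelium, fat and muscle cells. Caveolins insert into the inner leaflet and bind cholesterol, cavins form the outer coat, EHD ATPases and the F-BAR protein pacsin 2 shape and anchor the neck, and dynamin can cut it. Peripheral endothelium uses caveolae to carry plasma proteins across the cell, whereas brain endothelium keeps this route low as part of the blood-brain barrier.

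The label of the cells was checked against cell type markers. Of 12 endothelial markers, 7 were under 1 FPKM (fragments scaled for transcript length and for the library's total) in every library, among them Cdh5 at 0.0685 FPKM or less and Pecam1 at 0.269 FPKM or less, while Eng lay between 55.5 and 69.0 FPKM. The junction markers Cdh5, Pecam1 and Cldn5 (0.129 FPKM or less) were thus near 0 in cells labelled as endothelial. Of the same list, Tie1 lay between 4.94 and 6.16 FPKM and Esam between 0.997 and 1.80 FPKM. The summed level of the list was 76.1 to 86.4 FPKM in controls and 79.3 to 88.4 FPKM with mitochondria, and without Eng, which leads it, 20.7 to 22.5 and 19.2 to 19.6 FPKM. Flt1 (10.04 ± 0.932 and 7.75 ± 0.278 FPKM, SD, n = 3) and Kdr (3.94 ± 0.249 and 2.996 ± 0.262 FPKM), receptors for VEGF, lay lower with mitochondria without overlap, at limma adjusted p-values of 0.114 and 0.143. Among all tested genes, the groups did not overlap in 21.0% (9.62% higher and 11.4% lower). Of 12 fibroblast and mural markers, 6 reached 1 FPKM in every library, and the sum over all 12 was 431 to 465 FPKM in controls and 382 to 419.8 FPKM with mitochondria, without overlap. Col1a1, a collagen chain and the 1 marker called, fell from 138 ± 2.45 to 83.9 ± 3.19 FPKM (limma adjusted p = 0.00547). Without it the sum was 295.6 to 327.5 FPKM in controls and 299.8 to 338 FPKM with mitochondria, with overlap. Col3a1 leads that sum, at 214.3 to 248.4 FPKM over all libraries. Pdgfra, Acta2 and Des lay higher without overlap (limma adjusted p 0.0702, 0.204 and 0.266). Col1a2, under 1 FPKM and not tested, lay lower without overlap (0.204 ± 0.11 and 0.0994 ± 0.0206 FPKM). Pdgfrb had a lower mean with mitochondria, with overlap (59.8 ± 10.6 and 51.7 ± 4.895 FPKM, limma adjusted p = 0.563). Of 10 astrocyte markers, Aqp4, Gjb6 and Sox9 were listed at 0 in every library, and the sum was 26.5 to 63.3 FPKM in controls and 42.1 to 48.2 FPKM with mitochondria. Gja1 leads that sum, with 11.7 FPKM in control replicate 2 and 45.7 and 45.98 FPKM in the other controls, and without it the sums were 14.8 to 17.3 and 18.6 to 22.4 FPKM, without overlap. Aldoc makes up most of the sum without Gja1, at 14.1 ± 1.61 and 17.9 ± 2.28 FPKM (limma adjusted p = 0.268). Aldoc lay higher with mitochondria without overlap, as did the low genes Aldh1l1 (0.391 ± 0.0792 and 1.06 ± 0.0910 FPKM) and Slc1a2 (0.0476 ± 0.0304 and 0.122 ± 0.0471 FPKM), which were not tested. Means were lower with mitochondria, with overlap, for Gja1 (34.46 in controls and 24.44 FPKM), S100b (1.001 and 0.944 FPKM) and Slc1a3 (0.105 and 0.0522 FPKM). Gfap had a higher mean, also with overlap (0.0771 and 0.128 FPKM). The values imply 17100000 to 21200000 fragments in the control libraries and 21900000 to 27300000 in the mitochondria libraries. By this rough estimate the mitochondria libraries were deeper without overlap, but only 27.6% to 29.9% of low values lay near the multiples it rests on. The part of depth and of these markers in the results below was not tested.

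The promoters of the caveolins and of the strongest and the weakest expressed cavin with an entry are shown because these genes form the coat itself. Each window runs from 250 bases before to 50 bases after a RefSeq start site on GRCm38.p6, 5′ to 3′ on the gene's strand, and capitals mark GGGCGG, the core of the GC box bound by Sp1-type factors, on either strand. Cav1 is at chr6:17306085-17306384 on the plus strand, Cav2 at chr6:17280935-17281234 on the plus strand, Cavin1 at chr11:100970568-100970867 on the minus strand and Cavin2 at chr1:51288876-51289175 on the plus strand.
Cav1: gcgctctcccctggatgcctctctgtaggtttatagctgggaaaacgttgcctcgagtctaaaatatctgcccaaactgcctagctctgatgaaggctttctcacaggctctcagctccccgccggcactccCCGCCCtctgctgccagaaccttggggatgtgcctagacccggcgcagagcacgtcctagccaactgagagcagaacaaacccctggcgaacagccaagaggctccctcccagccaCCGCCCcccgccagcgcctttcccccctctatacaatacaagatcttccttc
Cav2: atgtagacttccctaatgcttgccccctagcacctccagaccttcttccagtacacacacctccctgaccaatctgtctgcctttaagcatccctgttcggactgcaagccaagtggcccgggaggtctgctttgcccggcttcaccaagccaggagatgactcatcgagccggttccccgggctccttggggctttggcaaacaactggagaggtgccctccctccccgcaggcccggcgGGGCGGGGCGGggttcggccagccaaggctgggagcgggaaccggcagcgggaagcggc
Cavin1: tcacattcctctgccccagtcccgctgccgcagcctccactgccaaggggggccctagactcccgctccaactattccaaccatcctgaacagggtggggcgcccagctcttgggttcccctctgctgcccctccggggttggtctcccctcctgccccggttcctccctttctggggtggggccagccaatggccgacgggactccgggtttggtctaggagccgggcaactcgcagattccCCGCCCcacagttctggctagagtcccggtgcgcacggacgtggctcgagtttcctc
Cavin2: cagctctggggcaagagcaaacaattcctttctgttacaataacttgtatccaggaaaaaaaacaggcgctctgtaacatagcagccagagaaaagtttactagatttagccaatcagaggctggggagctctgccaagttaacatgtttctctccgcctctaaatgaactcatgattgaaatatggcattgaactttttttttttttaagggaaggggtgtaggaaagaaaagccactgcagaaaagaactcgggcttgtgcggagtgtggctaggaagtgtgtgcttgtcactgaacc
Of the 8 members with an entry (Cavin3 and Plvap have none), 7 held GGGCGG in this window, as did 35.9% of the 27025 promoters in the table, and Cavin2 was the member without it. CCAAT, the core of the CCAAT box, was in 7 of 8, Cav1 being the member without it, and in 38.0% of all promoters. TATAAA, the letters of the TATA box, was found in Cav1 alone among the 8 and in 14.2% of all promoters. In Cav1 it lies on the opposite strand, as tttata near the upstream end of the window and not near the start site. TGANTCA, the AP-1 motif, was found in Cav2 alone and in 7.92%, and CATTCC, the TEAD motif, in Cavin1 alone and in 14.7%. All motifs were searched on both strands, none of the 5 contains another, and a match is a description of letters. The windows held 4 CpG dinucleotides in Cavin2, 13 in Cav1, 16 in Cav2 and 17 in Cavin1, and up to 29 in Ehd4, beside a median of 7 over all promoters. Cavin2 was thus the AT-rich member, with 43.3% G and C, where Cavin1 had 66.7% and the median promoter 52.7%. The 7 windows with GGGCGG ran from 54.0% (Dnm2) to 66.7% (Cavin1). The motif percentages over all promoters were not matched for base composition.

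Except for Plvap, every member lay above at least 76.6% of the tested genes in mean level. Per unit length, Cavin1 averaged 247 FPKM over the 6 libraries and lay above 99.2% of the tested genes. Ehd2 followed at 93.8 FPKM, Cav1 at 73.9, Cav2 at 59.2, Cavin3 at 40.6, Pacsin2 at 40.3, Dnm2 at 21.9, Cavin2 at 20.3, Ehd4 at 18.5 and Plvap at 1.80 FPKM. The steps from Cavin1 to Ehd2, from Cav2 to Cavin3, from Pacsin2 to Dnm2 and from Ehd4 to Plvap separated the genes in every library without overlap of their ranges. The ranges of Cavin3 and Pacsin2 overlapped, and Cavin3 was the higher in 4 of 6 libraries. Ranges also overlapped between Dnm2 and Cavin2 and between Cavin2 and Ehd4. Ehd2 was above Cav1, and Cav1 above Cav2, in 6 of 6 libraries, although their ranges overlapped. Ehd4 varied least across libraries, with a coefficient of variation of 3.01%, and Pacsin2 most, with 20.6%.

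**Figure D1:**
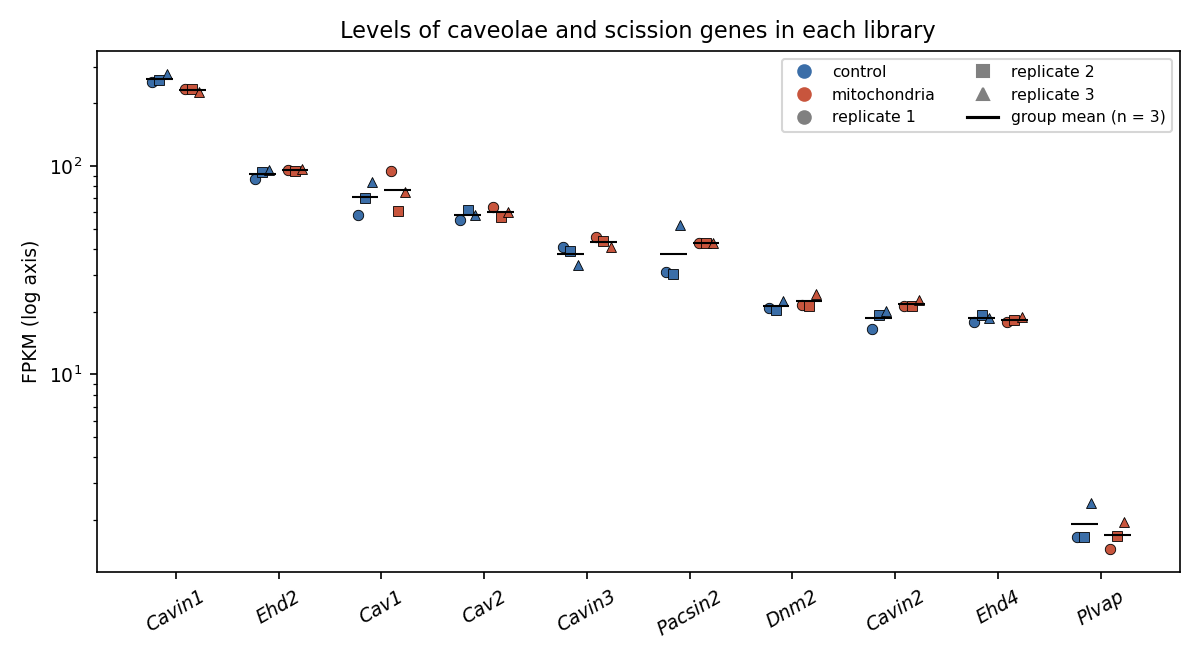
Level of each member in each library, in FPKM on a log axis, with controls in blue, mitochondria in red, the symbol giving the replicate number and a line at the mean of 3 libraries. Cavin1 lies on top at 227 to 275 FPKM and Plvap at the bottom at 1.46 to 2.41 FPKM, and the groups overlap in all members but Cavin1 and Cavin2.

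After 24 h with mitochondria none of the 10 genes passed the test, which was limma across all 12639 tested genes with Benjamini-Hochberg adjustment and a threshold of 0.05 for the adjusted p. The same threshold called 1.12% of all tested genes, 0.467% higher and 0.649% lower. Before adjustment 3 members had a p under 0.05, Cavin1 lower and Cavin2 and Cavin3 higher, beside 13.9% of all tested genes (6.58% higher and 7.32% lower). The groups did not overlap in 2 members, Cavin1 and Cavin2, beside 21.0% of all tested genes (9.62% higher and 11.4% lower). Log2 changes, taken on log2(FPKM + 1) with positive values for higher levels after mitochondria, ran from −0.18 (Cavin1) to 0.22 (Pacsin2), with a median of 0.07 over the members and −0.01 over all tested genes. In bulk RNA, a change in the level per cell and a change in the share of cells that express a gene cannot be told apart.

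Cav1 (ENSMUSG00000007655, GRCm38 chromosome 6, 17306335 to 17341452) encodes caveolin-1, the protein without which caveolae do not form outside muscle. It was at 58.0, 70.4 and 84.3 FPKM in control replicates 1 to 3 and at 94.7, 61.1 and 74.8 FPKM in mitochondria replicates 1 to 3. The groups overlapped widely, with the lowest value in a control and the highest in a mitochondria library. The log2 change was 0.11 (SE 0.19, 95% interval −0.33 to 0.55, limma adjusted p = 0.851). It was −0.03 without control replicate 1 and −0.05 without mitochondria replicate 1, so no direction can be given. Cav2 (ENSMUSG00000000058, chromosome 6, 17281185 to 17289115) encodes caveolin-2, which joins caveolin-1 in mixed oligomers, and ends 17219 bases upstream of Cav1 on the same strand. It was at 55.1, 61.5 and 58.1 FPKM in controls and at 63.4, 57.0 and 60.3 FPKM with mitochondria, again with overlap. Its log2 change was 0.05 (SE 0.06, 95% interval −0.10 to 0.20, limma adjusted p = 0.794).

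Cavin1 (ENSMUSG00000004044, chromosome 11, 100956733 to 100970887) encodes the cavin that is needed for the coat in all tissues. It was at 253, 259 and 275 FPKM in controls and at 234, 234 and 227 FPKM with mitochondria. Every mitochondria library was below every control, by a log2 change of −0.18 (SE 0.05, 95% interval −0.31 to −0.05), which did not pass the limma threshold (unadjusted p = 0.0131, adjusted p = 0.208). Cavin2 (ENSMUSG00000045954, chromosome 1, 51289126 to 51302960), a cavin with tissue-restricted roles that include endothelium, was at 16.6, 19.3 and 20.3 FPKM in controls and at 21.4, 21.3 and 22.8 FPKM with mitochondria. Here every mitochondria library was above every control, with a log2 change of 0.22 (SE 0.08, 95% interval 0.02 to 0.41, limma unadjusted p = 0.0324 and adjusted p = 0.305). Cavin3 (ENSMUSG00000037060, chromosome 7, 105480083 to 105482300), a cavin that binds protein kinase C delta, was at 40.8, 38.9 and 33.5 FPKM in controls and at 45.7, 43.8 and 40.8 FPKM with mitochondria. The groups of Cavin3 met at 40.8 FPKM, the highest control and the lowest mitochondria value, and the log2 change was 0.20 (SE 0.08, 95% interval 0.00063 to 0.40, limma adjusted p = 0.357). The signs of the 3 cavins were the same in all 16 alternative settings, though the change of Cavin2 was 0.14 without control replicate 1 and that of Cavin3 0.12 without control replicate 3. None passed in any of them, with a smallest limma adjusted p of 0.152 (Cavin1 without a library). Some of these settings changed only the filter or the variance model, or added a replicate block. They leave the log2 change as it was, so its sign could not turn there. Leaving out a library could not turn the sign of Cavin1 or Cavin2 either, since their groups did not overlap.

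**Figure D2:**
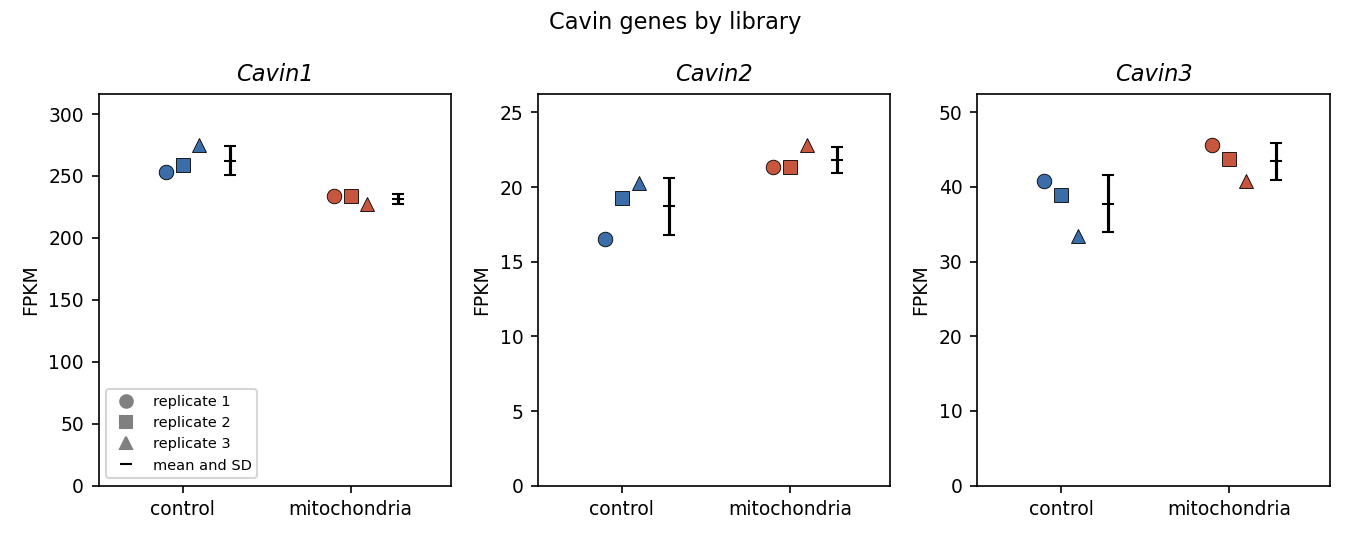
FPKM of Cavin1, Cavin2 and Cavin3 in each library, with axes from 0, points for single libraries and bars for the mean and SD of 3. Cavin1 lies lower with mitochondria (227 to 234 against 253 to 275 FPKM) and Cavin2 higher (21.3 to 22.8 against 16.6 to 20.3 FPKM), and none of the 3 genes passed the test.

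Since these cavin genes leaned in opposite directions, the balance of coat transcripts within a library is given as a description, chosen after the values were seen and with no test. The 5 caveolins and cavins together summed to 424, 449 and 471 FPKM in controls and to 459, 417 and 426 FPKM with mitochondria, with overlap. Cavin1 made up 59.7%, 57.7% and 58.4% of that sum in controls and 50.9%, 56.0% and 53.3% with mitochondria. The ratio of Cavin1 to Cavin2 was 15.3, 13.4 and 13.6 in controls and 10.9, 11.0 and 9.95 with mitochondria. The ratio of Cavin1 to Cavin3 was 6.20, 6.66 and 8.22 in controls and 5.12, 5.33 and 5.57 with mitochondria. In both ratios the groups did not overlap. This follows from the values above, since Cavin1 was lower and Cavin2 higher in every mitochondria library and the groups of Cavin3 only met. Both ratios therefore add no separate result. The ratio of Cavin1 to Cav2 did not overlap either, at 4.59, 4.215 and 4.74 in controls and 3.69, 4.10 and 3.77 with mitochondria. That of Cavin1 to Cav1 overlapped, at 4.36, 3.68 and 3.27 in controls and 2.47, 3.82 and 3.04 with mitochondria. The ratio of Cav1 to Cav2 overlapped, at 1.05 to 1.45 in controls and 1.07 to 1.49 with mitochondria.

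**Figure D3:**
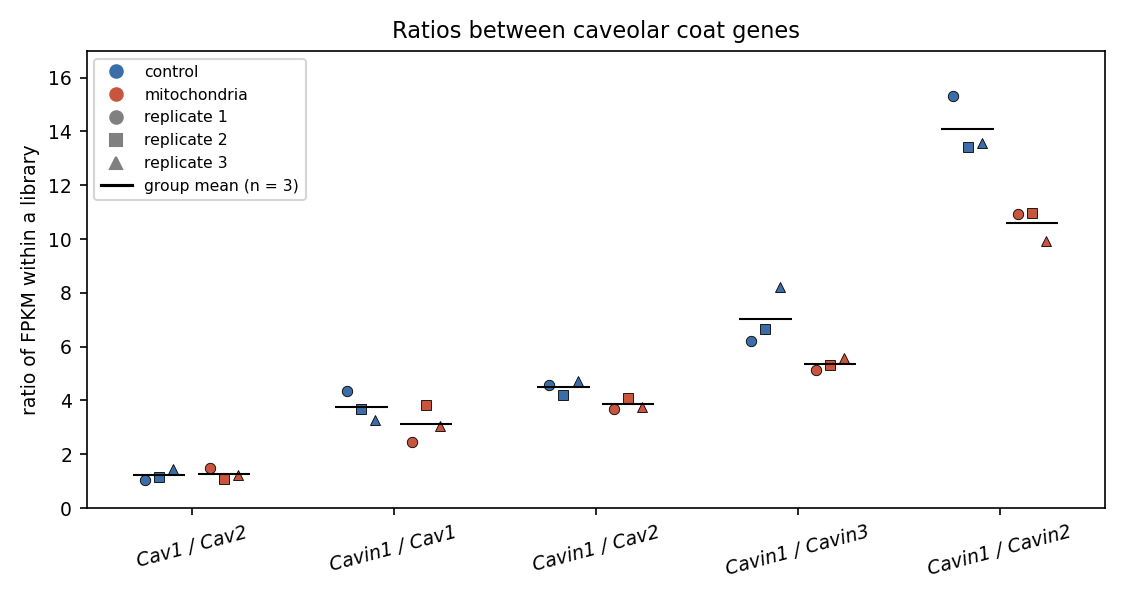
Ratios of FPKM between caveolar coat genes within each library, with a line at the mean of 3 libraries. The ratio of Cavin1 to Cavin2 averages 14.1 in controls and 10.6 with mitochondria, whereas the ratio of Cav1 to Cav2 averages 1.22 and 1.27.

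Ehd2 and Ehd4 encode membrane-remodelling ATPases, of which EHD2 sits at the caveolar neck. Ehd2 (ENSMUSG00000074364, chromosome 7, 15946958 to 15967567) was at 86.3, 94.0 and 95.4 FPKM in controls and at 95.3, 94.2 and 97.4 FPKM with mitochondria. The groups overlapped, and the low value was that of control replicate 1. The log2 change was 0.06 (SE 0.06, 95% interval −0.07 to 0.19, limma adjusted p = 0.705). Ehd4 (ENSMUSG00000027293, chromosome 2, 120089175 to 120154606) was at 17.9, 19.3 and 18.7 FPKM in controls and at 17.9, 18.2 and 18.9 FPKM with mitochondria. It had the smallest change of the members, −0.02 (SE 0.05, 95% interval −0.14 to 0.10, limma adjusted p = 0.906), and the sign turned without control replicate 2, to 0.0027.

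Pacsin2 (ENSMUSG00000016664, chromosome 15, 83375607 to 83464606) encodes pacsin 2, an F-BAR protein that curves membrane at caveolar necks. It was at 30.95, 30.3 and 52.1 FPKM in controls and at 42.8, 42.9 and 42.6 FPKM with mitochondria. The mitochondria libraries agreed closely (SD 0.123 FPKM), whereas the controls lay on both sides of them, 2 below and replicate 3 above. The log2 change was 0.22 (SE 0.20, 95% interval −0.24 to 0.68, limma adjusted p = 0.679). Without control replicate 3 it was 0.47 and passed, with a limma adjusted p of 0.0214, whereas it was 0.10 without control replicate 1 and 0.09 without control replicate 2. Pacsin2 overlaps the processed pseudogene Gm5417 on the same strand, which was at 4.14 to 6.29 FPKM. The annotation lists 11 transcripts for Pacsin2, and the deposited values give no level per transcript.

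Dnm2 (ENSMUSG00000033335, chromosome 9, 21424908 to 21507759) encodes dynamin 2, the widely expressed GTPase that cuts vesicle necks. It was at 20.8, 20.3 and 22.6 FPKM in controls and at 21.7, 21.3 and 24.5 FPKM with mitochondria, with overlap and a log2 change of 0.08 (SE 0.07, 95% interval −0.10 to 0.25, limma adjusted p = 0.704), and 0.02 without mitochondria replicate 3. A share of 3.48% of the 31-base words in its transcripts is found in other genes too, mostly Tmed1, which overlaps it on the opposite strand and lay between 11.9 and 22.4 FPKM. The sources used here do not say whether strand was used in quantification. Plvap (ENSMUSG00000034845, chromosome 8, 71497765 to 71511752) encodes the protein of the diaphragms across caveolae and fenestrae. It was at 1.65, 1.65 and 2.41 FPKM in controls and at 1.46, 1.68 and 1.97 FPKM with mitochondria, the lowest level of the 10, and 11.5% of tested genes were lower. Its log2 change was −0.10 (SE 0.13, 95% interval −0.40 to 0.20, limma adjusted p = 0.787), and 0.02 without control replicate 3. Plvap overlaps Gtpbp3 on the opposite strand, and Gtpbp3 was at 6.11 to 7.31 FPKM. For Cavin3, 21.1% of the 31-base words lie in the overlapping opposite-strand gene Gm45667, listed at 0.0869 FPKM or less. For Cav1, Cav2, Cavin1, Cavin2, Ehd4 and Plvap no such word occurs in another gene, and for Ehd2 and Pacsin2 under 1%.

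**Figure D4:**
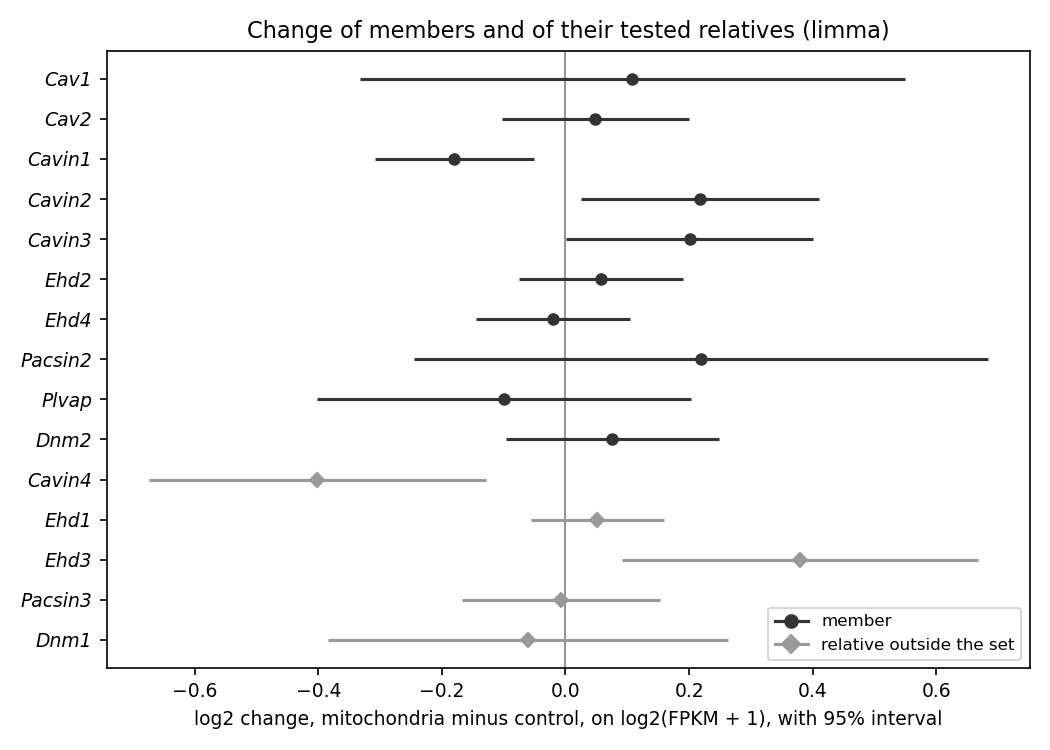
Log2 change with its 95% interval (limma, log2(FPKM + 1), positive where higher with mitochondria) for the 10 members in black and 5 tested relatives in grey. Intervals are widest for Pacsin2 (−0.24 to 0.68) and Cav1 (−0.33 to 0.55) and narrow for Ehd4, and no gene shown passed after adjustment.

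The closest relatives of the members were mostly lower than the members, apart from Ehd1, and none passed limma, with 2 of 5 tested at an unadjusted p under 0.05. The groups did not overlap in 3 of the 5 (Cavin4, Ehd3 and Ehd1), beside 21.0% of all tested genes. Cav3, the muscle caveolin, was listed at 0 in every library, and Pacsin1 and Dnm3, forms known from neurons, stayed at 0.0146 and 0.370 FPKM or less. Cavin4, the muscle cavin, was at 1.55, 1.24 and 1.53 FPKM in controls and at 0.682, 1.13 and 0.757 FPKM with mitochondria. Ehd3, of endocytic recycling, was at 2.41, 2.72 and 3.45 FPKM in controls and at 3.72, 3.70 and 4.61 FPKM with mitochondria. The log2 changes of Cavin4 and Ehd3 were −0.40 and 0.38, with limma adjusted p-values of 0.189 and 0.234. Ehd1, the recycling ATPase, was the main relative by level, at 44.2 to 46.5 FPKM in controls and 46.6 to 47.2 FPKM with mitochondria (limma adjusted p = 0.673). Pacsin3 at 10.8 to 12.6 FPKM and Dnm1 at 5.14 to 7.45 FPKM over all libraries had limma adjusted p-values of 0.976 and 0.889. Dynamin 2 was thus the higher dynamin per length in every library, and pacsin 2 the higher pacsin.

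Among other genes of caveolae and endocytosis, 1 of 63 tested passed, beside 1.12% of all tested genes. It was Mfsd2a, the lysolipid transporter known to keep caveolar transcytosis low in brain endothelium, at 9.66, 10.3 and 10.3 FPKM in controls and at 6.83, 6.52 and 6.97 FPKM with mitochondria. It fell by 0.51 on the log2 scale, with an SE of 0.06 and a limma adjusted p of 0.0182, and settings that lost the call include no filter (adjusted p = 0.0733) and 4 of 6 fits that left out a library, where it ran from 0.0319 to 0.109. Of 14 tested partners and transcytosis genes Mfsd2a was the 1 called, and the kinase gene Abl1 was at 8.80, 27.1 and 27.7 FPKM in controls and at 9.53, 8.75 and 10.2 FPKM with mitochondria. Abl1 had a limma adjusted p of 0.370, and 0.00472 without control replicate 1, which again rests on 1 library. Of 21 tested clathrin coat and adaptor genes none passed limma and 2 had an unadjusted p under 0.05, both lower. The smallest p was that of Cltb, a clathrin light chain, at 6.93, 7.33 and 6.20 FPKM in controls and 5.86, 5.63 and 5.27 FPKM with mitochondria (limma adjusted p = 0.215). Of 16 tested genes of membrane curvature and scission none passed limma and 1 had an unadjusted p under 0.05, Fnbp1l, an F-BAR protein, at 9.48 ± 1.12 and 7.74 ± 0.895 FPKM (SD, n = 3; limma adjusted p = 0.356). Of 7 tested genes of clathrin-independent uptake none passed limma and 2 had an unadjusted p under 0.05, 1 higher and 1 lower. Flot1, which encodes the raft protein flotillin 1, came nearest, at 50.8, 46.7 and 51.0 FPKM in controls and 60.4, 60.7 and 67.2 FPKM with mitochondria, with a log2 change of 0.34 ± 0.06 (SE) and a limma adjusted p of 0.0743. The list medians were −0.01 for relatives, −0.03 for partners, 0.02 for clathrin, −0.02 for scission and −0.03 for clathrin-independent genes, beside −0.01 for all genes tested.

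**Figure D5:**
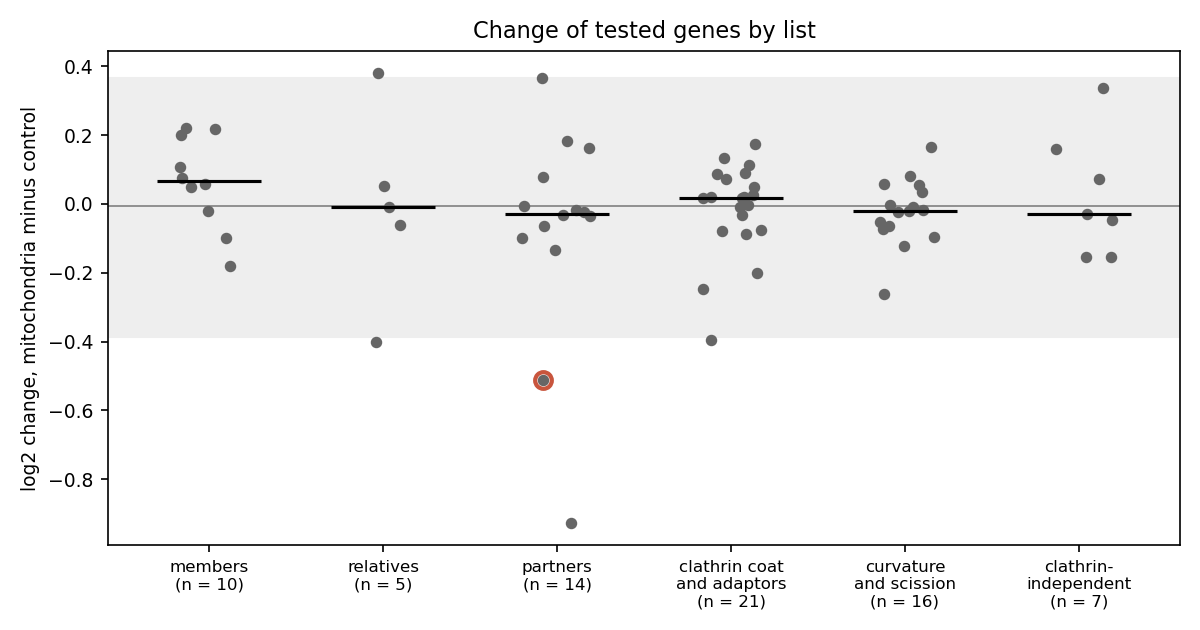
Log2 change of every tested gene by list, with a black line at each list's median, a grey band for the central 95% of all tested genes (−0.39 to 0.37) and a red ring around the called gene Mfsd2a. All 10 members lie within the band.

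Likeness in pattern over the 6 libraries is given as a description, since all genes share the same libraries and their depth. It spans both groups and so includes any difference between them. Over n = 6 libraries, the tested genes with the highest Pearson's r to Cav1 on the log2(FPKM + 1) scale were Gm12473 (0.985), Dicer1 (0.978) and Nckap5los (0.975), and 7 genes reached 0.95. Those closest to Cavin1 were Lpar1 (0.996), Tmtc2 (0.995) and Angpt1 (0.992), and 96 genes reached 0.95. Lpar1, Tmtc2 and Angpt1 lay lower with mitochondria without overlap, as did Cavin1 and 11.4% of all tested genes. Among the members, r to Cav1 ran from 0.77 for Cav2 to −0.10 for Cavin3, and r to Cavin1 from 0.52 for Plvap to −0.85 for Cavin3. Cav1 and Cavin1, whose proteins meet in the same coat, had an r of 0.03 with each other over both groups. In controls both rose with the replicate number, Cav1 from 58.0 to 84.3 FPKM and Cavin1 from 253 to 275 FPKM. With mitochondria, Cav1 was at 94.7, 61.1 and 74.8 FPKM and Cavin1 at 234, 234 and 227 FPKM.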

How the data were processed

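RNA was sequenced from 6 libraries, 3 per group. The authors deposited 1 column per library, read here as FPKM from the values, since the headers name no unit: the columns were not whole numbers and summed to 281433 to 297838. The submitters' processing notes name StringTie 1.3.1c, STAR 2.5.3a and FastQC 0.11.5 with build GRCm38, without roles or settings. In genes with 1 transcript, FPKM times length peaked at multiples of 1 value per library, which gave the implied fragments, but only 27.6% to 29.9% of low values lay within 0.02 of a multiple, so no count model was used.

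Of 55335 identifiers 55154 matched GENCODE M21. Genes reaching 1 FPKM in 3 or more libraries were tested. The test was limma 3.58.1 (R 4.3.3) on log2(FPKM + 1) for the group effect alone, two-sided, with trended and robust empirical Bayes, adjusted by Benjamini-Hochberg over all these genes. The code was tested on simulated data. The members and lists were chosen with earlier results of these data known. Named are all members and relatives, the called genes of each other caveolae and endocytosis list or, where none was called, the gene with the smallest p, and the 3 genes most like Cav1 and Cavin1. Abl1 and the markers were named after their values were seen, and marker sums without Eng, Col1a1 or Gja1 were added then. Alternatives changed the pseudocount (0.1, 0.01), the filter (none, or a mean of 5 FPKM), the scaling (unweighted TMM, quantiles, TPM, or without genes of mitochondrial DNA), the variance model (plain empirical Bayes), added the replicate block, or left out each library.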

Additional observations from a re-analysis of the deposited data

How the results depend on the processing

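The filter, plain empirical Bayes and replicate block settings cannot alter a log2 change. Only the side of the threshold could differ there. Of 159 alternative values of the members' log2 changes, these settings included, 154 kept both the sign and the side of the threshold. The sign turned in 4, each without 1 library: Cav1 without control replicate 1 (−0.03) or mitochondria replicate 1 (−0.05), Ehd4 without control replicate 2 (0.0027) and Plvap without control replicate 3 (0.02). Without single libraries the log2 change of Cav1 ranged from −0.052 to 0.26, of Ehd4 from −0.046 to 0.0027 and of Plvap from −0.17 to 0.023. Pacsin2 passed without control replicate 3 (0.47). Without control replicate 1, Cav2 moved to 0.0099 and Ehd2 to 0.014, and Cav2 to 0.011 without mitochondria replicate 1. Plvap has no value under the filter at a mean of 5 FPKM. The number of members called was 0 in the other settings and ranged from 0 to 1 without single libraries. The number of all genes called was 141, and 13 with no filter, where 29365 genes were tested, and ranged from 14 to 88 without single libraries. Of the other caveolae and endocytosis genes, 1 was called, 0 with no filter and 0 to 2 without single libraries. With the replicate number as a block, 56 genes, 0 members and 0 of the other caveolae and endocytosis genes were called, and Mfsd2a had a limma adjusted p of 0.0535. The cause of these differences was not tested. Same-numbered libraries of the groups had correlations of 0.10, 0.05 and 0.30 in their deviations from the group means, control replicate 2 correlated best with mitochondria replicate 1 (0.12), and the labels do not say that numbers pair libraries. The number of libraries, 3 a group, limits the precision to the intervals given.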
